A study of Mus musculus with 2 samples.

Results

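Homeodomain genes outside the Hox clusters were examined in the CpG states of E14 mouse embryonic stem cells (mESCs). The set holds the autosomal protein-coding genes of the Dlx, Irx, Nkx, Lhx, Pitx, Gsx, Msx, Emx, Barhl, Evx and Vax families and of the family of Six2 and Six3, taken by symbol from GENCODE vM21 on mm10. It came to 56 of 20807 autosomal protein-coding genes, and the rule uses symbols only. In SCoTCH-seq, a read pair covers the plus and the minus strand of the same duplex, and each CpG is called as 1 of these states: unmodified on both strands (CC), methylated on both (MM), methylated on 1 strand only (MC/CM), hydroxymethylated on 1 strand and unmodified on the other (HC/CH), hydroxymethylated opposite a methylated C (HM/MH), or hydroxymethylated on both (HH). The cells were of the E14 line, grown on gelatin in medium with serum and LIF and with no treatment or genotype named, and 2 replicates of this single condition were sequenced, described by the study as independent experiments. There was therefore no group to compare, and all comparisons are within the genome of the same cells. No transcripts were measured in these libraries, so the cell label could not be checked against marker genes.

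Replicate 1 held 143497239 calls at 13676795 CpG sites, a mean of 10.5 calls per site, and replicate 2 held 31306245 calls at 4918612 sites, a mean of 6.36. In the spans of the 56 genes and 5 kb upstream of them, 12752 sites were covered in replicate 1 and 4096 in replicate 2. Coverage was lowest at the starts of these genes. Within 1 kb of the transcription start site (TSS), called the promoter here, 42.5% of the CpGs of the reference were covered in replicate 1 and 13.1% in replicate 2, against 58.4% and 18.5% in the bodies, the part of the span beyond that 1 kb. A level is the percentage of all calls in a region that were of the given state, and values are written with replicate 1 first. A gene entered tests and medians with at least 10 covered sites in each replicate, which 50 of the 56 genes reached in the body, 40 in the promoter and 46 at 1 to 5 kb upstream.

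Homeodomain proteins are transcription factors that bind DNA through a conserved helix-turn-helix fold, and most genes of these families act in patterning and cell fate. Dlx, Emx, Gsx, Lhx and Vax genes are known from forebrain and eye, Nkx genes from ventral neural tube, heart and foregut, Pitx genes from pituitary and limb, and Six2, Six3 and their relatives from sensory organs and kidney. In embryonic stem cells, genes of this kind are mostly silent. Their CpG-rich start regions are known as sites of Polycomb binding that stay free of methylation. Hydroxymethylcytosine is made from methylcytosine by TET enzymes, so an HC/CH site was methylated on at least 1 strand beforehand.

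The promoters and bodies were rich in CpG. The median promoter held 52.5 CpG per kb, with a range of 9.99 to 98.0, against 32.0 over all genes. The median body held 32.9 CpG per kb against 10.6. To show what these loci look like, 200-base stretches just upstream of the TSS are given for 2 of the genes with the most sites covered in both replicates there, read 5′ to 3′ along the gene from GRCm38.p6, with CpGs covered in both replicates in capitals. Neither stretch overlaps an exon of its own gene.
Dlx4 upstream, chr11:95146264-95146463, minus strand: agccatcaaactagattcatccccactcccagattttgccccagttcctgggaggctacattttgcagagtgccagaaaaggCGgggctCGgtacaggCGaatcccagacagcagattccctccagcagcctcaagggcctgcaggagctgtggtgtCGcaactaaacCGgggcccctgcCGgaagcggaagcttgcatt
Dlx2 upstream, chr2:71546755-71546954, minus strand: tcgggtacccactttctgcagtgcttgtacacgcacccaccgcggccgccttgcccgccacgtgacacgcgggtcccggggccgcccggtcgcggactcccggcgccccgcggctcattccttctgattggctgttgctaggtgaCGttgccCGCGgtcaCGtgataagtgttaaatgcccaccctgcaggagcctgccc
CC made up 92.2% and 93.3% of calls in the Dlx4 stretch and 100% in both replicates in that of Dlx2. These genes code for distal-less factors of limb, branchial arch and forebrain. The Dlx2 stretch carried 22 CpGs, of which 4 were covered in both replicates, so the measured sites are a small sample of it.

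The other stretches shown are from gene bodies outside exons, 1 each for 2 of the genes whose 200 bp bins had the highest HC/CH on the lower of the replicates, out of 32 bins in 19 genes with 5 or more sites in each replicate. They were picked for this value, and it is a description only.
Lhx6 body, chr2:36102400-36102599, minus strand: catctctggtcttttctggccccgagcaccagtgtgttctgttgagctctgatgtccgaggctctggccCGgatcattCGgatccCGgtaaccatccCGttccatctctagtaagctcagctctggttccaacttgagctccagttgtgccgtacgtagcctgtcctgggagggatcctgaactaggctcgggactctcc
Lhx4 body, chr1:155729400-155729599, minus strand: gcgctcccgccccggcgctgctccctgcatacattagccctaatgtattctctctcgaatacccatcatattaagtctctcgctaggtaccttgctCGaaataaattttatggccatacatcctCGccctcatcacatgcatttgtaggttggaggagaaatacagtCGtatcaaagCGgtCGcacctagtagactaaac
In the intronic stretch of Lhx6, a factor of cortical interneurons, 8 of 86 calls were HC/CH in replicate 1, with an exact 95% interval of 4.10% to 17.5%. In replicate 2 it was 3 of 31 calls, with an interval of 2.04% to 25.8%. Lhx4, a factor of pituitary and motor neurons, had 6 of 84 and 2 of 27 HC/CH calls. CC was the most frequent state in each of these stretches, with 70.9% and 67.7% of calls in Lhx6 and 59.5% and 51.9% in Lhx4. Such intervals cover counting error only, since calls at neighbouring CpGs can come from the same read pair.

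Around the TSS the genes formed a broad unmodified domain that ran well downstream of the TSS. Some of the genes, such as Gsx1 with a span of 2.25 kb, end before the bin at 3.25 kb downstream. CC was highest in the first 500 bp downstream of the TSS, at 96.1% and 93.5%, against 85.8% and 84.2% over all genes. At 3.25 kb downstream, CC was still 77.3% and 72.2%, where all genes had 31.7% and 27.6%. The domain also reached upstream, with 63.1% and 62.7% at 2.25 kb before the TSS against 31.3% and 27.7%. In the outermost bin alone, at 9.75 kb upstream, CC was 23.1% and 24.2%, below the 30.01% and 26.7% of all genes. That bin does not stand for the upstream flank. CC of the 56 genes was 46.8% and 35.6% at 9.25 kb and 37.5% and 30.6% at 8.75 kb. HC/CH was lowest in the same first 500 bp, at 0.967% and 0.831% against 1.42% and 1.62% over all genes, and was 4.37% and 4.14% at 3.25 kb downstream against 5.14% and 4.80%. These bins do not stand for the upstream side. HC/CH of the 56 genes there was 4.10% and 5.27% at 0.75 kb before the TSS and 4.91% and 6.63% at 2.25 kb.

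**Figure D1:**
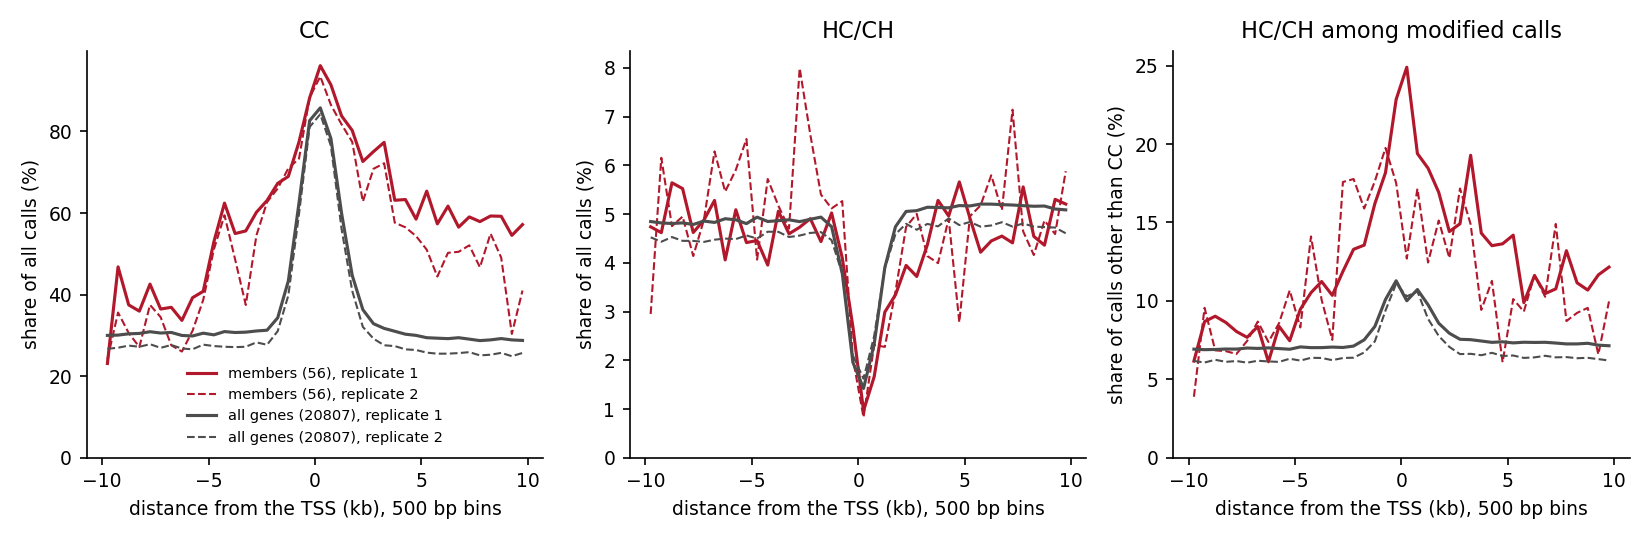
Levels of CpG states in 500 bp bins within 10 kb of the TSS, as a percentage of all calls for CC (left) and HC/CH (middle) and of calls other than CC for HC/CH (right), for the 56 genes and for all autosomal protein-coding genes in each replicate; CC of the 56 genes lay nearer to that of all genes at the TSS, at 88.2% and 88.3% against 82.6% and 81.1% just upstream of it, and the gap was wider at 3.25 kb downstream, at 77.3% and 72.2% against 31.7% and 27.6%.

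In bodies, the 50 genes with enough sites had a median CC level of 74.7% and 61.2%, or 68.0% ± 9.56 (SD, n = 2), against 21.5% and 17.3% over the 16590 bodies tested. CC was above the median of all genes in both replicates in 49 of the 50, and MM was below it in all 50, at a median of 13.0% and 22.3% against 55.4% and 60.4%. Each body was compared with the sum of all other bodies by Fisher's exact test, two-sided, with Benjamini-Hochberg adjustment over all genes, and is called only where the adjusted p fell below 0.05 in both replicates with the same direction. CC was called higher in 48 of 50 bodies, against a background of 33.5% of all bodies, and MM lower in the same 48, against 32.2%. The bodies not called in either comparison were those of Lhx8 and Msx2. Msx2, a craniofacial gene named here after its values were seen, had 49.3% and 24.1% CC at 47 and 10 covered sites. MC/CM was called lower in 30, against 16.7%, and in 47 in replicate 1 alone, against 38.3%. With a quasi-binomial test over 200 bp bins, which allows for spread between bins, CC was called higher in 19 of the 31 genes with at least 10 bins, against 10.4% of all bodies, MM lower in 19 against 11.5%, and MC/CM lower in 6 against 5.45%. The statistic of this test is bounded by the number of bins, so a gene near the minimum of 10 could hardly be called at any effect. Few calls by it, here or below, therefore do not show that an effect was absent. The compared families also had unmodified bodies. CC was called higher in 25 of 25 Hox bodies, in 41 of 61 bodies of Fox, Sox, Gata and Tbx genes, and in 5 of 8 Pax bodies, and no difference between families was tested.

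The genes differed widely among themselves, from 19.7% to 96.9% CC in replicate 1 and from 24.1% to 98.6% in replicate 2. CC was higher in replicate 1 than in replicate 2 in 39 of the 50. Among the 19 genes with at least 50 covered body sites in each replicate, Nkx2-2, a factor of ventral neural tube and pancreas on chromosome 2, had the highest body CC, at 88.5% and 85.0%. Six3, which acts in forebrain and eye, had 86.7% and 84.6%, and Pitx1, a factor of hindlimb and pituitary, had 84.2% and 80.6%. The values of Nkx2-2 and Six3 overlapped, and both values of Pitx1 lay below those of Nkx2-2 and Six3. Emx2, a cortical patterning gene, had 75.1% and 69.2%. At the other end, Lhx8, a factor of basal forebrain cholinergic neurons, had 19.7% and 28.9%, below the median of all bodies in replicate 1 and above it in replicate 2, and Vax2, a ventral eye gene, had 33.9% and 32.6%. Lhx4 had 47.9% and 41.03%, Six4 47.9% and 49.5%, and Lhx9, a gonad and forebrain factor, 50.8% and 44.6%. The member with the most sites covered in both replicates was taken from each family as well, which added 4 genes. Gsx1, a ventral forebrain factor, had 93.4% and 94.6% body CC, the highest of the 4 in both replicates. Evx2, which lies beside a Hox cluster, had 73.0% and 61.7%, and Msx3, a dorsal neural tube gene, had 56.5% and 49.2%. Emx1, a cortical gene, had 52.0% and 33.9%, a spread between replicates wider than for the other 3. By family, pooled body CC was highest in Gsx, at 88.8% and 84.9%, and in Nkx, at 81.6% and 77.5%. It was lowest in Vax, at 41.1% and 42.4%, and next lowest in Lhx, at 57.4% and 48.4%. The Vax pool has 2 genes, with 33.9% in Vax2 and 79.2% in the other gene in replicate 1. Vax2 holds 361 body CpGs of the reference and the other gene 116, so the pooled value mostly reflects Vax2. At 1 to 5 kb upstream of the TSS, the median CC level was 61.0% and 60.8% over 46 genes against 26.5% and 21.8% over all genes, while HC/CH was 4.37% and 4.74% against 4.99% and 4.35%.

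**Figure D2:**
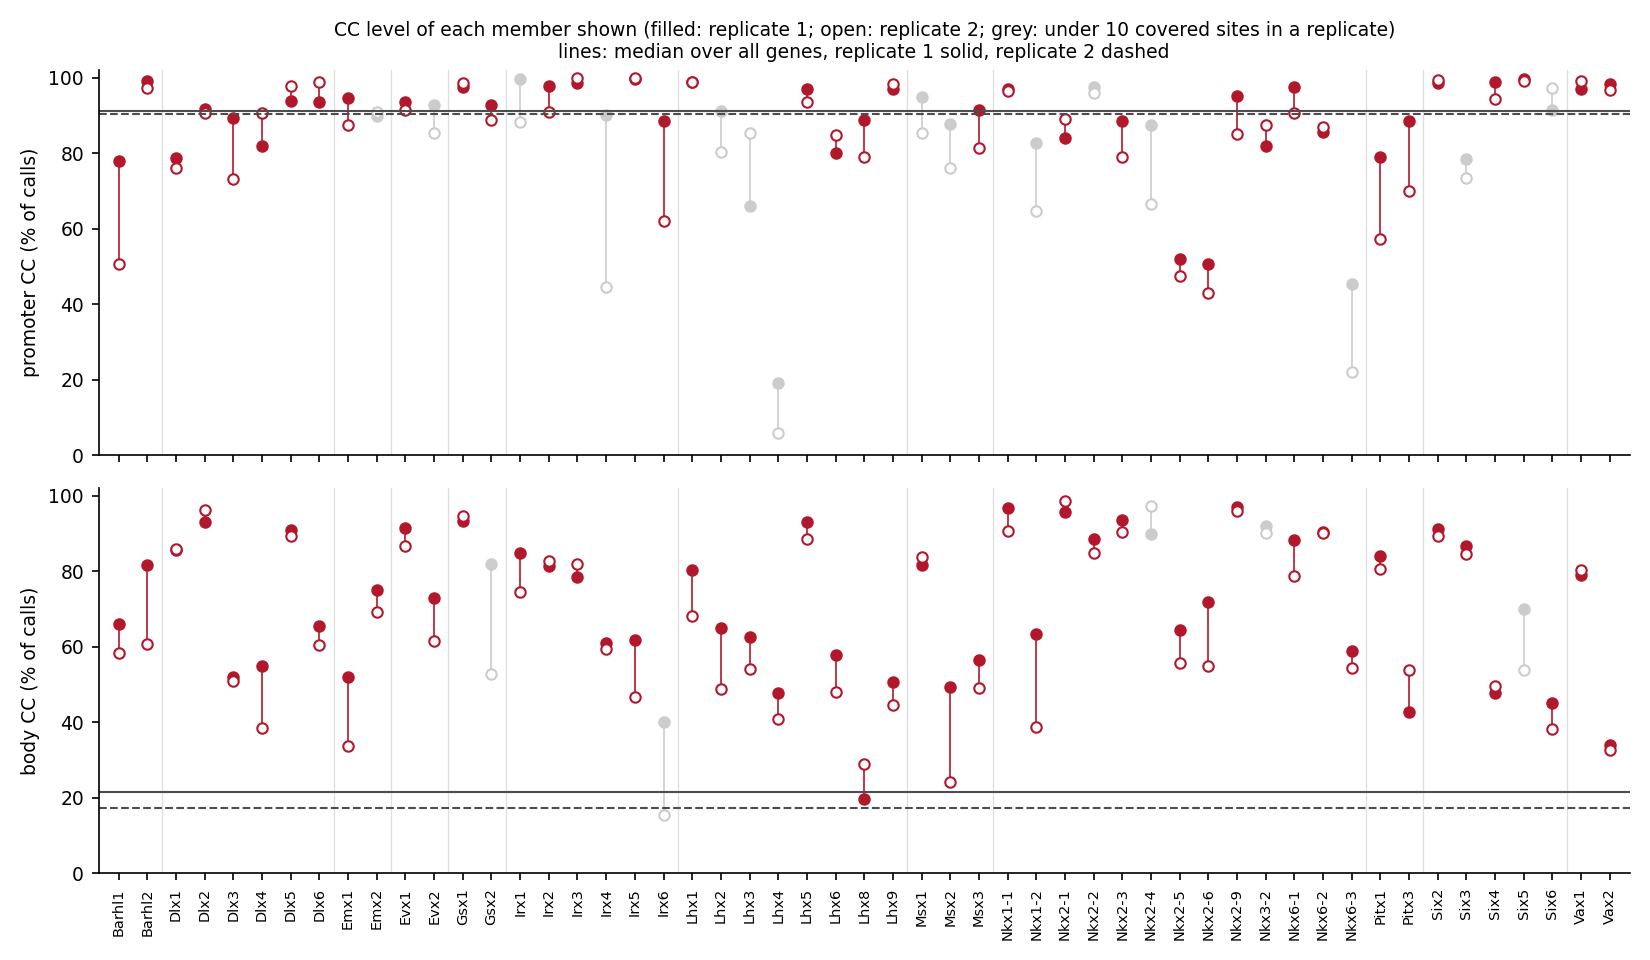
CC in the promoter and the body of each gene shown, as a percentage of calls in each replicate; bodies ranged from 19.7% to 96.9% in replicate 1 and most promoters lay higher, with Nkx2-6 and Nkx2-5 at or below 51.9% among promoters with enough sites.

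Promoters were close to those of other genes in CC and differed among themselves in a few cases. The median promoter CC was 93.6% and 90.8% against 91.3% and 90.3% over the 9664 promoters tested. Fisher's exact test against all other promoters called CC higher in 15 of 40 genes, near the background of 40.3%, and lower in 5, against 20.6%. In replicate 1 alone these counts were 25 and 8, against 52.8% and 2806 of the 9664 promoters, and in replicate 2 alone CC was lower in 8, against 23.9%. The count of higher promoters also rested on the width and the start site used, with 1 of 12 within 500 bp of the TSS, against 24.8% of all promoters of that width, 36 of 53 within 2 kb, against 34.1%, and 36 of 46 when all annotated TSSs were used, against 44.3%. The 5 promoters called lower were those of Nkx2-6, Nkx2-5, Barhl1, Dlx1 and Pitx1. These calls also changed with the definition. Within 500 bp 0 of 12 were lower, with all annotated TSSs Nkx2-6, Nkx2-5 and Lhx3 were, and with sites covered in both replicates Nkx2-6 and Pitx1 were. With at least 20 covered sites, which 13 of the genes had, Dlx1, Pitx1, Nkx2-3 and Pitx3 were lower. They are named only to show that the list changed, not as an excess over other promoters. Nkx2-5, a cardiac factor, had 51.9% and 47.5% CC, and its relative Nkx2-6, also known from heart and pharynx, had 50.8% and 42.9%. Barhl1, a factor of hair cells and cerebellum, had 77.9% and 50.7%, Pitx1 79.0% and 57.2%, and Dlx1, a forebrain factor, 78.7% and 76.0%. With these promoters of 1 kb either side, the Pitx1 promoter was the only one of the 40 called for HC/CH, higher at 4.79% and 6.90% against a median of 1.37% and 1.34%, and the background of that call was 3.71%. In replicate 1 alone 10 promoters were called higher, against 17.6% of all promoters. With 500 bp promoters and with all annotated TSSs 0 were called, and with at least 20 covered sites Pitx1, Pitx3 and Msx3 were, 3 of 13 against 3.82%. No promoter was called lower in HC/CH, where the background was 0.0103%, and 0 were lower at an unadjusted p under 0.05 in both replicates, compared with 226 of the 9664 promoters, while replicate 1 alone called 4 of 40 lower, against 20.3% of all promoters.

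Within genes, promoter CC was called above body CC in 20 of the 36 genes with enough sites in both regions, against a background of 91.1% of genes, and below it in 4, against 1.84%. Those 4 were Dlx1, Pitx1, Nkx2-1 and Nkx2-3, the last 2 named here after their values were seen. Dlx1 had 78.7% and 76.0% in the promoter and 85.6% and 85.9% in the body. Nkx2-1, a gene of thyroid, lung and ventral forebrain, had 84.1% and 89.1% in the promoter and 95.8% and 98.6% in the body. Nkx2-3, a gene of gut and spleen, had 88.6% and 79.1% in the promoter and 93.6% and 90.3% in the body. With the quasi-binomial test, 15 genes had enough bins and 0 were called in either direction, where 19.3% of all genes had the promoter above. Since that test is limited in genes with few bins, the 0 does not show that promoter and body were alike. HC/CH was called lower in the promoter than in the body in 0 of the 36 genes by Fisher's exact test, against 13.4% of all genes, 4 were lower at an unadjusted p under 0.05 in both replicates, where 2476 of 8814 genes were, and 12 were called in replicate 1 alone, where 66.7% of all genes were. Bodies in this set had fewer covered sites on average than those of all genes, so a call was harder to reach in them.

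The unmodified domain was measured in each gene as the run of 500 bp bins around the TSS with at least 50% CC, to at most 20 kb on either side. Bins with under 5 calls were passed over, at most 2 in a row, and count in the width where the run goes on beyond them. A longer stretch of such bins ended the run, so widths can hold unmeasured bins and can be cut short by low coverage. Its median width was 5.5 kb and 4.5 kb, against 1.5 kb in both replicates over all genes. It was at least 5 kb wide in both replicates in 21 of the 56 genes, or 37.5%, and in 3.77% of all genes. Hox genes had medians of 6.0 and 4.0 kb, the 8 Pax genes 7.25 and 4.0 kb, and the Fox, Sox, Gata and Tbx genes 3.5 and 3.0 kb. The widest domains on the narrower of the replicates were those of Six3, at 14.5 and 14 kb, and of Nkx2-2, at 15.0 and 13.5 kb. Msx1, a craniofacial gene, had 10.0 and 11 kb and Dlx2 had 10.0 and 9.5 kb. Lhx5, a forebrain factor, had 18.0 and 10.0 kb, so its replicates differed by more than the other 4. Most of the Six3 and Nkx2-2 domains lay downstream of the TSS, whereas that of Msx1 lay mostly upstream. Lhx4 was the only gene with no such domain in either replicate. Its annotated TSS lay in sequence with 9.99 CpG per kb, and CC there was 19.1% and 5.88% at 16 and 3 covered sites. When 70% CC was required in each bin, the median width was 3.5 and 3.0 kb against 1.5 and 1.0 kb over all genes. With 10 calls required per site it was 5.0 kb against 1.5 kb in replicate 1, and in replicate 2 it was 0 for both.

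**Figure D3:**
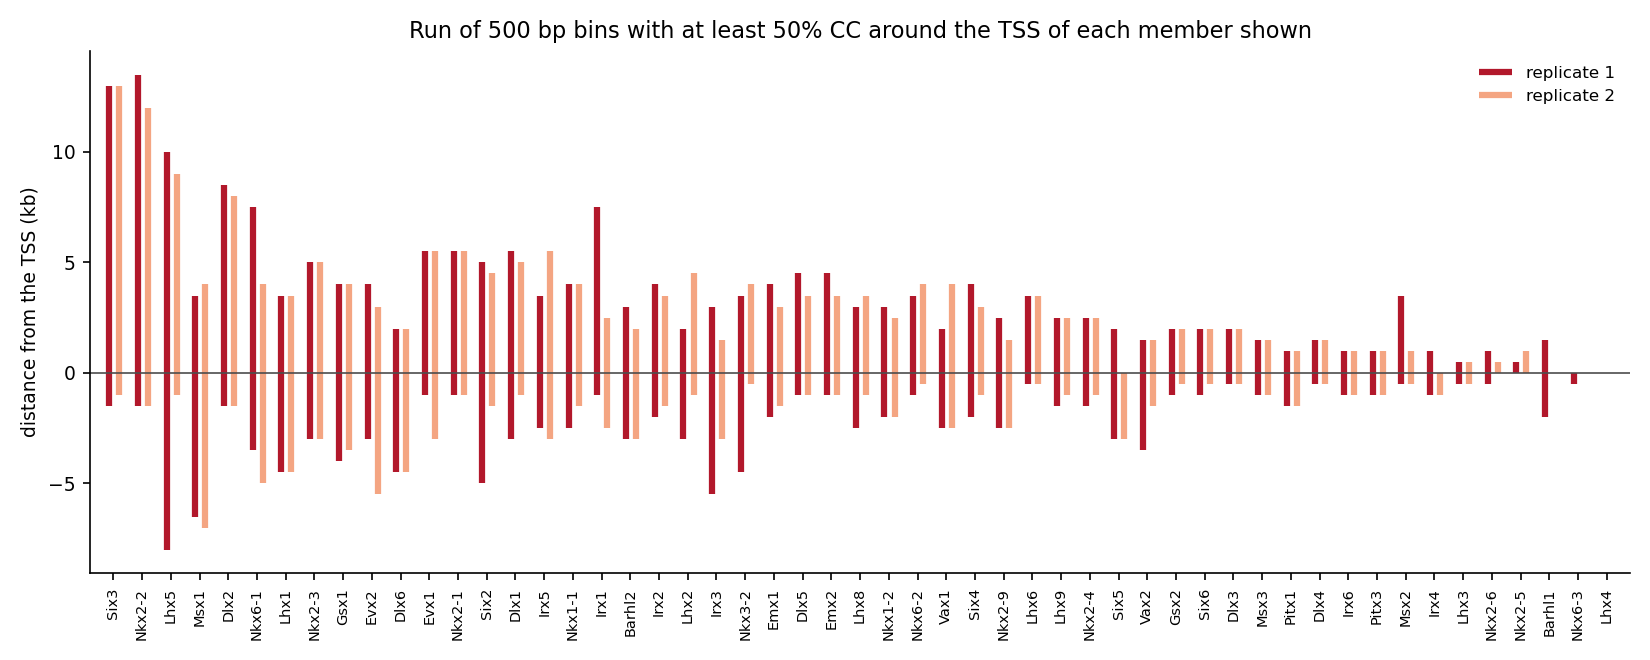
Extent of the run of 500 bp bins with at least 50% CC around the TSS of each gene shown, in kb upstream (negative) and downstream (positive) of the TSS, with 1 bar per replicate. Up to 2 bins in a row with under 5 calls were passed over. Genes are ordered by the narrower of the replicates, from Six3 at 14.5 and 14 kb to Lhx4, which had none.

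CC rises with CpG density in these data, and the bodies of these genes are dense, so levels were set beside those of all genes in bins of like density, a measure added after values were seen. In bins with 10 to 19 CpGs per 500 bp, CC was 66.5% and 59.7% in the bodies of these genes against 27.1% and 23.6% over all genes. With fewer than 5 CpGs it was 28.8% and 21.9% against 17.3% and 13.97%, and with 5 to 9 it was 36.2% and 29.5% against 18.8% and 15.7%. With 20 to 29 CpGs it was 86.1% and 81.4% against 65.5% and 63.0%. In bins of 30 or more the values were 95.8% and 94.3% against 93.9% and 92.6%, so the gap was smallest where CpGs were densest. Hox bodies had 71.5% and 64.8% at 10 to 19 CpGs, whereas the Fox, Sox, Gata and Tbx bodies had 28.0% and 23.5% there, close to all genes. At 20 to 29 CpGs, however, the Fox, Sox, Gata and Tbx bodies had 79.97% and 77.2%, nearer to the 56 genes than to all genes.

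**Figure D4:**
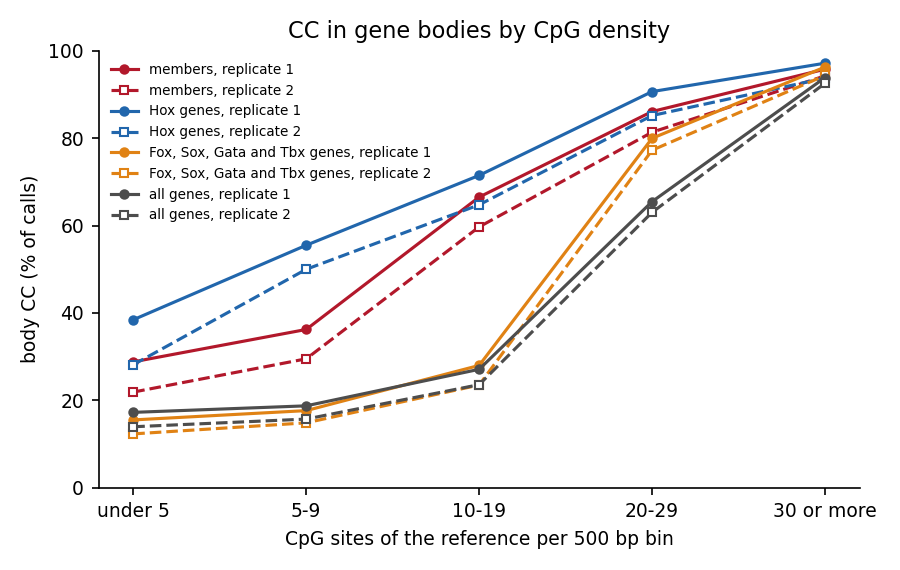
CC in gene bodies by the number of CpGs per 500 bp bin, as a percentage of calls in each replicate, for the 56 genes (members), Hox genes, Fox, Sox, Gata and Tbx genes and all genes; at 10 to 19 CpGs per bin the 56 genes had 66.5% and 59.7% against 27.1% and 23.6% over all genes.

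In calls pooled over the genes, CC fell from exons to introns beyond the first. Over the 56 genes, it was 73.3% and 67.4% in exons beyond 1 kb of the TSS, 68.5% and 62.8% in first introns and 58.7% and 50.9% in other introns. Each gene weighs by its calls in a region, so the mix of genes can differ between these pools. No comparison of these regions within genes was made. HC/CH ran the other way, at 3.15% in exons in both replicates, 4.35% and 4.01% in first introns and 4.57% and 5.06% in other introns. Over all genes the order of HC/CH was different, with 5.25% and 4.83% in exons and 4.43% and 3.89% in other introns.

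HC/CH as a share of all calls was lower at the median in these bodies than over all bodies, by more in replicate 1 than in replicate 2, and no single body was called. The median was 3.54% and 3.68%, or 3.61% ± 0.0960 (SD, n = 2), against 4.96% and 4.23% over all bodies. It was below the median of all genes in both replicates in 25 of the 50 and above it in both in 11. Fisher's exact test called 0 of 50 bodies higher, against a background of 13.0%, and 0 lower, against 9.31%, and at an unadjusted p under 0.05 in both replicates 1 was higher and 0 were lower, compared with 2855 and 2036 of the 16590 bodies. Replicate 1 alone called 7 higher and 17 lower, where it called 33.1% and 21.1% of all bodies. Among the highest levels of genes with 50 sites were those of Vax2, at 8.25% and 5.70%, and of Lhx6, at 5.32% and 4.99%. Lhx8 had 4.95% and 4.98%, and Irx5, a gene of retina and heart, had 4.70% and 4.91%. Ranked on the higher of the replicates, the 5 lowest were Pitx1, at 2.55% and 2.98%, Nkx2-2, at 2.19% and 3.15%, Lhx4, at 3.90% and 3.57%, Pitx3, a dopaminergic neuron and lens gene, at 3.99% and 2.16%, and Emx2, at 4.08% and 3.49%. The values of these 5 genes overlapped in part, and the lowest single value was that of Pitx3 in replicate 2. HM/MH was 1.82% and 1.71% at the median against 4.19% and 2.65%. It was called lower in 2 bodies, those of Nkx2-2 and Lhx5, against a background of 2.33%, in 0 of 31 with the quasi-binomial test, against 2.15%, and in 33 in replicate 1 alone, against 11.9%. In the spike-in duplexes of known state, 4.51% of MM was called as HM/MH in replicate 1 and 0.467% in replicate 2, and 3.50% and 0.607% of MC/CM as HC/CH. The HC/CH medians of bodies given above were not corrected for these rates, which differ between the replicates. After correction with these call rates, median HM/MH was 0.930% and 1.53% in these bodies against 1.59% and 2.29% over all bodies.

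Since most calls in these genes were CC, HC/CH was also taken as a share of the modified calls, all those other than CC, a measure added after values were seen. It was 15.4% and 11.8% at the median body, or 13.6% ± 2.56 (SD, n = 2), against 6.65% and 5.37% over all bodies, and after correction with the call rates of each replicate it was 14.8% and 11.998% against 6.01% and 5.36%. It lay above the median of all genes in both replicates in 43 of the 50 and below it in both in 0. Fisher's exact test called it higher in 23 of 50, against a background of 20.9%, and in 42 in replicate 1 alone, where 42.2% of all bodies were called. It was called in 16 of 25 Hox bodies and 25 of 61 bodies of Fox, Sox, Gata and Tbx genes. The calls depended on the test and on the sites. The quasi-binomial test over 200 bp bins, which is limited in genes with few bins, called 2 of 31 genes, Nkx2-2 and Six3, against 7.93% of all bodies. With only sites covered in both replicates Fisher's test called 12 of 45, against 17.0%. Nkx2-2 had 19.1% and 21.1%, with adjusted p of 5.52e-15 and 1.19e-06 in Fisher's exact test. Six3 had 18.0% and 29.7%, and its replicates lay far apart. Vax2 had 12.5% and 8.46% and was called. Lhx8 had 6.17% and 7% and was not called.

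The share of modified calls that were HC/CH rose with CC over all genes. The 500 bp bins of gene spans and 5 kb upstream, promoters included, were therefore grouped by their CC level in the other replicate. The share was read in the replicate that did not set the class. In bins with less than 20% CC it was 7.21% in replicate 1 and 4.44% in replicate 2 in these genes, against 5.19% and 3.63% over all genes. In bins with 40% to 60% CC it was 16.6% and 12.7% against 11.96% and 11.7%, and in bins with 60% to 80% it was 20.1% and 17.4% against 16.1% and 16.6%. In bins with at least 80% CC it was 28.998% and 25.2% against 20.4% and 22.6%. As a ratio, the gap between these genes and all genes was smaller within each of these classes than over bodies. In bodies the pooled values were 12.1% and 10.3% against 5.85% and 5.04%. Bodies leave out the promoters and upstream stretches that the classes hold, so the regions compared differ. The classes were not matched fully, since CC as measured in replicate 1 was 20.03% in these genes and 12.3% over all genes in the lowest class, and 62.5% and 46.7% in the class of 40% to 60%. In replicate 2 it was 40.5% and 41.1% in that class. As a share of all calls, HC/CH was highest in bins of intermediate CC in these genes, at 7.03% in replicate 1 for 20% to 40% CC and 7.54% in replicate 2 for 40% to 60%, and lowest at 80% or more, at 1.83% and 2.35%. Over all genes the same classes were highest, at 6.47% and 6.88%, and lowest, at 1.54% and 1.86%.

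**Figure D5:**
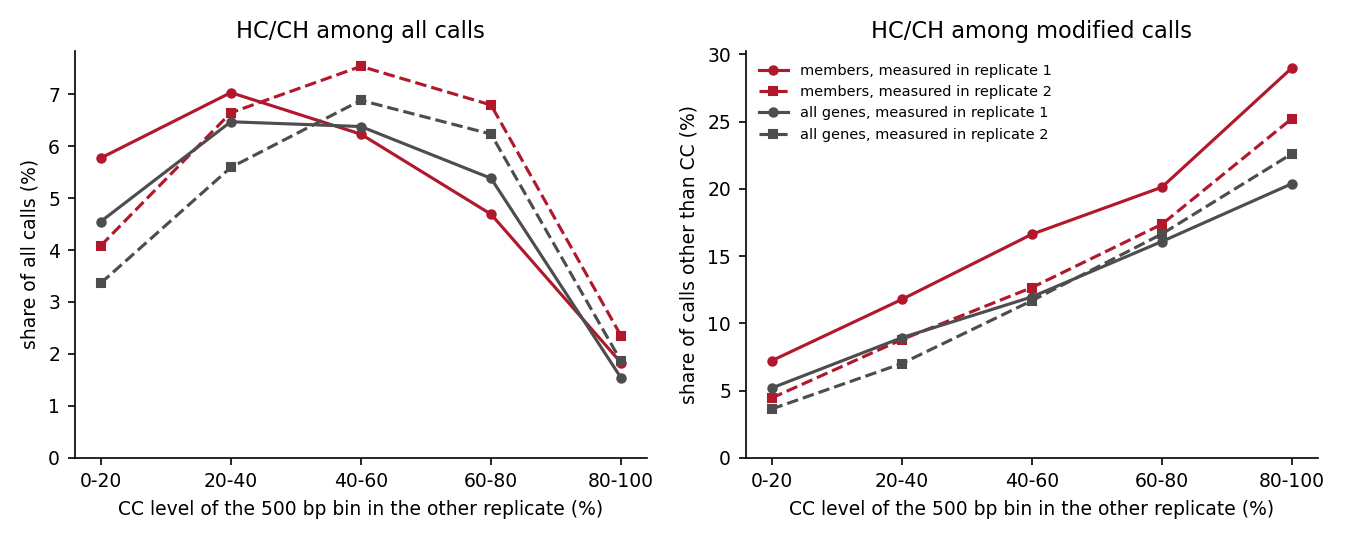
HC/CH as a percentage of all calls (left) and of calls other than CC (right), in 500 bp bins of gene spans and 5 kb upstream, promoters included, grouped by the CC level of the bin in the other replicate, for the 56 genes (members) and all genes; the share of modified calls rose from 7.21% to 28.998% in replicate 1 and from 4.44% to 25.2% in replicate 2 in the 56 genes.

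No difference between the sense and the antisense strand of the gene was called for the asymmetric states. MC against CM, HC against CH and HM against MH were turned to the direction of the gene and compared by an exact binomial test in each body. No body of the 16590 tested was called for any of the 3 states, a background of 0.0%, and 0 of the 50 genes had an unadjusted p under 0.05 in both replicates with the same direction. Over all bodies few did, with 71 sense and 61 antisense for MC/CM, 14 and 20 for HC/CH, and 6 and 24 for HM/MH. The quasi-binomial test also called 0 bodies. Summed over the genes, 1348 HC/CH calls had the hydroxymethylated C on the sense strand and 1329 on the antisense strand in replicate 1, or 50.4% sense with an exact 95% interval of 48.4% to 52.3%. In replicate 2 the numbers were 307 and 294, or 51.1% with an interval of 47.0% to 55.1%. For MC/CM, the sense share was 50.8% in replicate 1 and 45.3% in replicate 2, with intervals of 49.2% to 52.4% and 42.5% to 48.2%, so the interval contained an even split in replicate 1 and lay below it in replicate 2. For HM/MH, the sense share was 49.1% and 52.5%, with intervals of 46.6% to 51.7% and 46.7% to 58.3%.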

How the data were processed

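SCoTCH-seq was performed by the authors on genomic DNA of 2 E14 mESC replicates. They trimmed and split reads with Cutadapt, aligned the inserts to GRCm38 (mm10), removed duplicates, and called a CpG state per read pair. The deposited files hold counts of calls of each state at each CpG and percentages of the depth, uncorrected for miscalls. The authors kept sites with at least 5 calls in a replicate and dropped those in the blacklist or with several calling errors. The paper's methods and the labels give different shares of serum in the medium.

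Counts were summed over sites per gene and region in Python 3.11.15 (pandas 2.3.3, NumPy 2.4.6), tested with SciPy 1.17.1 and plotted with Matplotlib 3.10.9. All sites lay on a CpG of GRCm38.p6. Corrected levels solve the linear system of call rates from the spike-in duplexes, with negative values set to 0. Both replicates belong to the same condition and allow no test between samples. Fisher's and exact binomial tests were run within each replicate over all genes. Several calls come from the same read pair, so their p-values are too small, and the quasi-binomial test over 200 bp bins is the alternative. It divides the sum of the deviations of the bins by the root of their summed squares, and reads the result against a t distribution. The p-value therefore cannot become small in a gene with few bins. Fisher's test of body HC/CH, the strand tests and the test by bins were tried on simulated counts. The rule for the width of the domain was tried on a constructed gene.

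The members and gene lists were chosen with earlier results of these data known. The genes named were those with the 5 highest and 5 lowest body CC and HC/CH (at least 50 sites in each replicate), the 5 lowest promoter CC, the 5 widest domains and the best covered member of each family, plus genes singled out by a test. The share of modified calls, the classes of CC and CpG density, the strand sums and the other definitions of the body were chosen after seeing the data. Alternatives were other site minimums, shared sites, corrections, per-site means, promoter widths, all TSSs and leaving out each replicate. Some genes and sequences that these rules pick are not reported here.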

Additional observations from a re-analysis of the deposited data

How the results depend on the processing

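Values here are counts of the homeodomain genes called, or medians over them as the mean of the replicates. Under the alternatives, 116 values stayed close to the reported ones and 65 moved. Close means a count within 1.5 times or a median within 1 SD of the replicates. By this rule a median with a replicate left out always counts as close, since it lies within that SD of the mean by construction. The SD also differs between measures, so a median with a wide SD can shift further and still count as close. Whether a direction reversed was not checked, and the cause of a move was not tested. Counts for body CC and MM were 49 with either replicate alone, against 43.8% and 43.5% of all bodies in replicate 1 and 34.8% and 33.6% in replicate 2. Leaving out each replicate gave 30 to 47 genes for lower body MC/CM (18.1% to 38.3% of all genes tested), 0 to 7 for higher (15.0% to 33.1%) and 0 to 17 for lower body HC/CH (10.8% to 21.1%), 2 to 33 for lower body HM/MH (3.93% to 11.9%), 23 to 42 for HC/CH of modified calls (22.5% to 42.2%), 16 to 25 for higher promoter CC (44.9% to 52.8%), 8 in both cases for lower promoter CC (2306 and 2806 of the 9664 promoters), 2 to 10 for higher (4.81% to 17.6%) and 0 to 4 for lower promoter HC/CH (0.0207% to 20.3%), and 0 to 12 for promoter HC/CH below the body (13.7% to 66.7%), so the share over all genes moved as well. With the quasi-binomial test 19 bodies were higher in CC, 19 lower in MM, 6 lower in MC/CM, 0 lower in HM/MH and 2 higher in HC/CH of modified calls, and promoter CC was above the body in 0 genes and below it in 0. With 20 covered sites required, promoter CC was higher in 3 of 13 genes (35.3%), promoter HC/CH in 3 of 13 (3.82%) and promoter CC above the body in 3 of 9 (98.5%). With sites covered in both replicates, the counts were 1 for higher body HC/CH (9.81%), 1 for lower body HM/MH (1.29%), 12 for HC/CH of modified calls (17.0%), 8 for higher (41.5%) and 2 for lower promoter CC (21.0%), 11 for promoter CC above (91.4%) and 1 below the body (1.74%), and 1 for promoter HC/CH below the body (8.72%), and the medians were 3.89% for body HC/CH, 89.1% for promoter CC, 1.81% for promoter HC/CH, 62.8% for upstream CC and 4.125 kb for the domain. Promoters of 500 bp either side gave 1 higher in CC, 0 lower (11.2%) and 0 higher in HC/CH (3.03%), with medians of 98.3% CC and 0.577% HC/CH, and those of 2 kb gave 36 higher in CC, with 84.3% CC and 2.95% HC/CH. All annotated TSSs gave 36 promoters higher in CC, 3 lower (29.3%) and 0 higher in HC/CH (3.47%). A body beyond 2 kb of the TSS gave 1 higher in HC/CH, that of Dlx3, where 13.8% of all bodies were called. It gave 0 lower in HM/MH (2.61%) and a median HC/CH of 4.09%. A body beyond 1 kb of all annotated TSSs gave 1 lower in HM/MH (2.37%) and a median HC/CH of 4.11%. Both definitions were chosen after seeing the data. Correction with the rates of the same replicate gave 1.41% promoter HC/CH and 61.4% upstream CC, and with the rates of both replicates 1.40% and 61.3%, with 3.48% body HC/CH. Means of per-site percentages gave 3.72% body HC/CH, 1.43% promoter HC/CH and 62.4% upstream CC. The median domain was 3.25 kb wide at 70% CC and 2.5 kb with 10 calls per site. With 10 calls per site too few genes reached the site minimum for other values, and no promoter reached the bins needed for the quasi-binomial test against other promoters. Samples could not be paired, because the replicates form a single group. In replicate 2 alone, with a mean of 6.36 calls per site and other call rates than replicate 1, the counts for body MC/CM, HC/CH, HM/MH and HC/CH of modified calls equalled the reported ones, and the part of depth in this was not tested.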
